A study of Mus musculus with 4 samples.

Results

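The genes described here regulate p53 or carry a signal from a failed mitosis to it, and they were followed through mouse intestinal organoids in which the spindle gene Tacc3 was floxed. The members are 10 genes, listed by name: Trp53, Trp53bp1, Usp28, Mdm2, Mdm4, Pidd1, Casp2, Lats2, Usp7 and Ppm1d. Every probe set (a group of short array probes read out as a single intensity) whose platform annotation gave 1 of these symbols was taken, which found 31 of the 45101 probe sets for 9 of the 10 genes. No probe set carries the symbol Trp53 in the platform table used here, so the p53 transcript itself was not analysed here. A further probe set, annotated to both Lats2 and a neighbouring gene, was left out.

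The study comprised 4 Affymetrix arrays, 1 for each of Tacc3 wt/wt at day 4, Tacc3 fl/fl at day 4, Tacc3 wt/wt at day 6 and Tacc3 fl/fl at day 6. All 4 cultures, the wt/wt controls included, were grown in Matrigel and exposed to 4OHT (4-hydroxytamoxifen, which activates tamoxifen-dependent Cre recombinase) for 24 hours. The series design names Apc and Tacc3 as the genes to be recombined. In the sample descriptions, however, day 4 organoids are normal and day 6 organoids Apc-deficient, so the Apc state of each array is not settled and was not used. The Cre driver, the floxed exons, the age of the mice and the number of animals or cultures behind each array are details not given in the sources used. With 1 array a group no difference has a replicate error, and no p-value was computed. Differences were called by size alone, at 2-fold (1 on the log2 scale).

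When a mitosis runs too long, the adaptor 53BP1 and the deubiquitinase USP28 bind p53 and stabilise it. Extra centrosomes, as after a failed division, instead activate the PIDDosome, in which PIDD1 (with the adaptor CRADD, also known as RAIDD) switches on the protease caspase-2, and caspase-2 cleaves MDM2. LATS2, a Hippo pathway kinase, binds MDM2 and restrains it. MDM2 is the ubiquitin ligase that marks p53 for destruction, MDM4 is its partner that blocks p53 as a transcription factor, USP7 removes ubiquitin from both MDM2 and p53, and the phosphatase PPM1D (also known as WIP1) shuts the p53 response off. Mdm2 and Ppm1d are themselves textbook p53 target genes. Most of this regulation acts on protein, and the arrays measured RNA only.

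Mdm2 and Ppm1d are p53 target genes, and Mdm2 and Casp2 were the members past 2-fold between the days in both genotypes. The promoters of Mdm2, Ppm1d and Casp2 are therefore shown. They are the 250 bases before the RefSeq start, on the GRCm38.p6 build: chr10:117710759-117711008 on the minus strand for Mdm2, chr11:85311004-85311253 on the plus strand for Ppm1d, and chr6:42264735-42264984 on the plus strand for Casp2. Capitals mark matches to the p53 half-site consensus of 10 bases and to the CCAAT box (CCAAT or, on the other strand, ATTGG).
Mdm2: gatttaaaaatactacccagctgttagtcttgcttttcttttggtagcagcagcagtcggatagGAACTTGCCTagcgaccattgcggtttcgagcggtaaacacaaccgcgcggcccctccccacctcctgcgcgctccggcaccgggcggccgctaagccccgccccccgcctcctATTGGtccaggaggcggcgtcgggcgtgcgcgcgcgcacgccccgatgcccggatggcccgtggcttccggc
Ppm1d: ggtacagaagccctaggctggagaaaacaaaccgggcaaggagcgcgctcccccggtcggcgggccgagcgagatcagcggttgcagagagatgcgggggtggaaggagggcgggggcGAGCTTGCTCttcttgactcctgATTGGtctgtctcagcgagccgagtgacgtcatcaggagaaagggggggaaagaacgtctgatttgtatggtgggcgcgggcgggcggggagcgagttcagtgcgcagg
Casp2: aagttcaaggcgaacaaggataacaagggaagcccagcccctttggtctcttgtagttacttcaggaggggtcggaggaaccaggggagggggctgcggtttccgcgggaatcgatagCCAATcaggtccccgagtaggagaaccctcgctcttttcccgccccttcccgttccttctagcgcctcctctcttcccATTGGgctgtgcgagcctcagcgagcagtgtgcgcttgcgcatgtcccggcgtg
A p53 half-site match was present once in the Mdm2 window (GAACTTGCCT, starting 186 bases before the start) and once in the Ppm1d window (GAGCTTGCTC, 132 bases before). The Trp53 window held another (GGACTTGCCC, 75 bases before). These 3 windows were the only ones among the 12 RefSeq windows of the 10 genes, and 7.13% of all 32851 windows of that length held such a match. The half-site reads the same on both strands. The CCAAT box was present in 6 of the 12 windows, against 33.8% of all windows, and Casp2 held 2 copies, 132 and 54 bases before its start. The GC box GGGCGG, counted on both strands, was present in 8 of the 12, against 32.7% of all windows. The share of G and C ran from 41.6% (a window of Mdm4) to 85.2% (Usp7). Most of the 12 lay above the median of all windows, 52.4%, and the part of this composition in the motif counts was not tested. TTTGAA, the core of the element that mitotic genes use in G1 repression, and GGAATG, the core of the TEAD site, were each absent from all 12 on either strand, against 15.99% and 12.6% of all windows. Matches to different motifs do not overlap in the printed windows, while GGGCGG matches 31 and 27 bases before the Ppm1d start share 2 bases. A match describes letters only. Whether p53 acts through a half-site in these windows, or through bases outside them, was not examined.

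Tacc3 was lower in both fl/fl arrays. Its brightest probe set stood at 32.5% of the wt/wt intensity at day 4 and at 29.8% at day 6. Of its dimmer probe sets above the filter, an x_at probe set stood at 48.9% and 50.7%, and the dimmest, with intensities of 12.6 to 22.6, at 80.4% and 87.2%. Epithelial markers were all above the intensity filter (10 of 10), mesenchymal markers in 3 of 7, and the endothelial markers in 0 of 3. Of the immune list, 2 of 5 passed, and its summed intensity (between 1179 and 2908 over the arrays) came almost wholly from Lyz2, whose probe set read 1136 to 2857 while Ptprc read 4.68 to 6.77. For Actb, control probes at the 5' end read 0.0610 and 0.0627 of those at the 3' end in the day 4 arrays (wt/wt and fl/fl) and 0.180 and 0.261 in the day 6 arrays, and for Gapdh 0.208 and 0.142 against 0.411 and 0.524. Such ratios fall when RNA or cRNA is short. Control transcripts added to each sample were brighter at day 4 too, with median intensities of 3627 and 2525 against 1258 and 1021 for the hybridization controls and of 1512 and 928 against 743 and 410 for the poly-A spike-ins. The 4 stem cell markers summed to intensities of 1413 and 1218 in the day 4 arrays and 8960 and 5282 in the day 6 arrays, and 4 enterocyte markers to 1062 and 1192 against 5050 and 8073. The ratios, the added controls and these markers move with the day, and their part in the day differences below was not tested. The added controls were also dimmer in the fl/fl array than in the wt/wt array of each day, as the medians above show. Markers differed between the genotypes too. In wt/wt and fl/fl organoids the 3 goblet markers summed to 1013 and 2420 at day 4 and to 1198 and 1214 at day 6, the 3 Paneth markers to 26271 and 32374 and then 25094 and 22673, and the 3 enteroendocrine markers to 301 and 339 and then 272 and 669. Single genes carried much of some sums. At day 6 Lyz1 read 23031 and 20598, while Mmp7 (1702 and 1690) and Clps (361 and 384) hardly differed. Chgb read 191 and 537 there. In the stem cell sums at day 4, Olfm4 (834 and 391) and Ascl2 were lower in fl/fl organoids, and Lgr5 (262 and 405) and Smoc2 were higher. The part of these controls and markers in the genotype differences was not tested either. Fewer cells of a type and less RNA per cell cannot be told apart in such bulk samples.

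**Figure D1:**
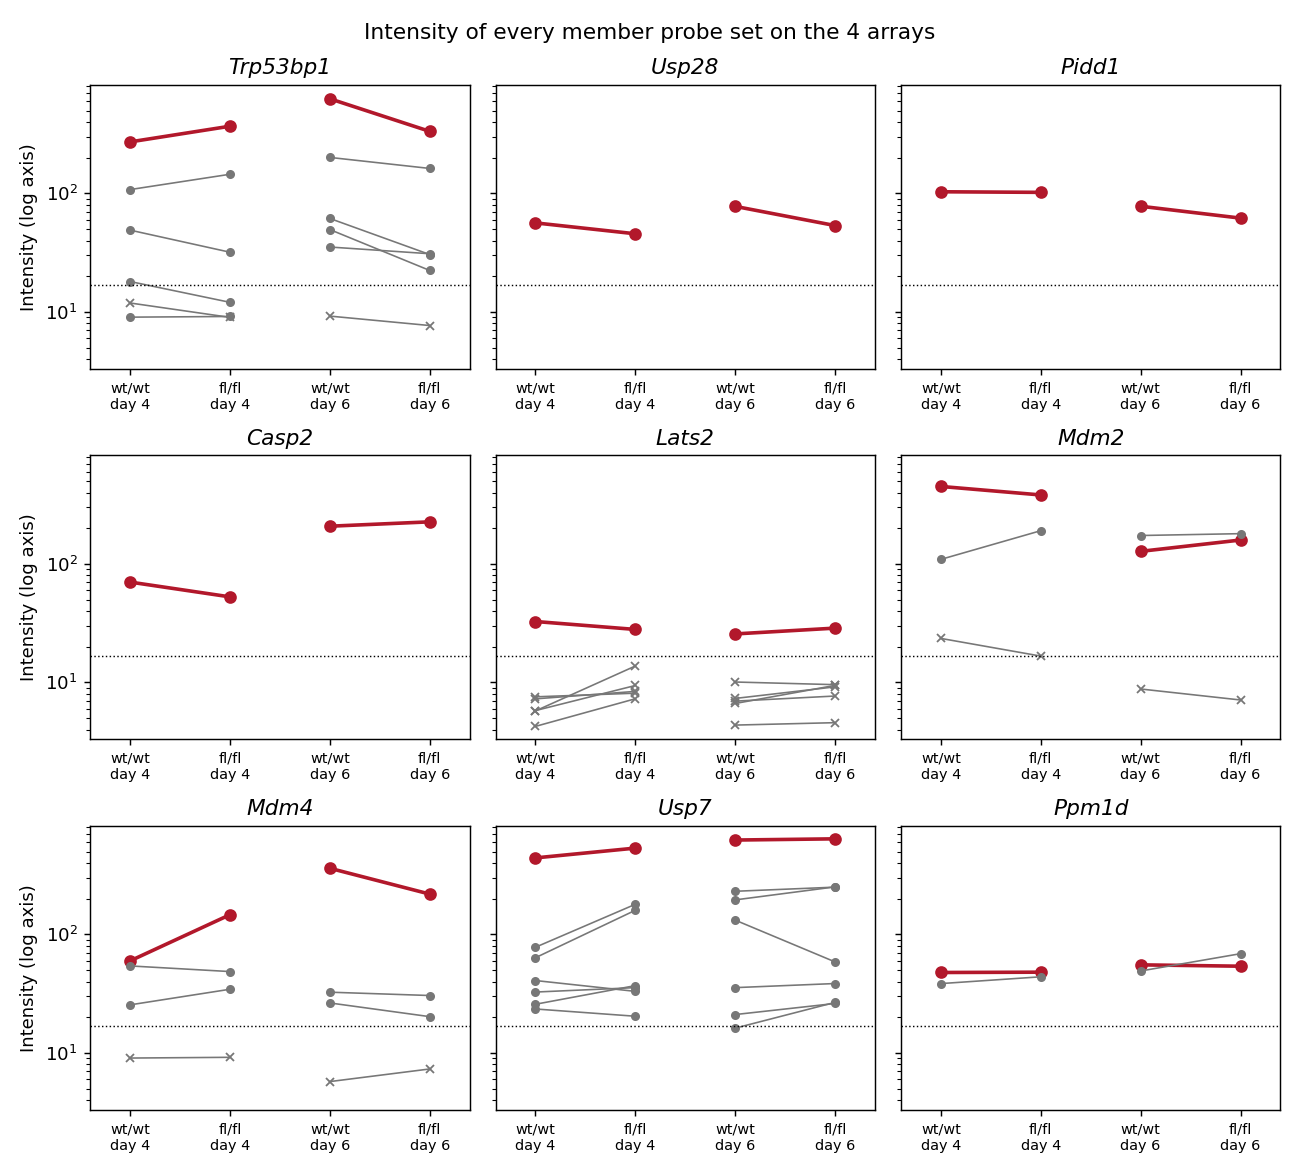
Intensity (log axis) of each of the 31 member probe sets on the 4 arrays, with lines joining the genotypes within a day. Red marks the brightest probe set of a gene, grey the others, crosses the 8 probe sets below the filter, and the dotted line the filter at an intensity of 16.9. Casp2 is higher and the brightest Mdm2 probe set lower at day 6 in both genotypes, while the other probe sets of Mdm2, Mdm4, Usp7 and Trp53bp1 do not all follow the brightest.

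Of the 31 probe sets, 23 had a mean log2(intensity + 16) at or above the median of all non-control probe sets (5.04, an intensity of 16.9), and each of the 9 genes had at least 1 of them. A gene's own value is that of its brightest probe set. All log2 differences below are on the log2(intensity + 16) scale, which understates the differences of dim probe sets. Probe set levels are compared across arrays and not between genes.

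Setting fl/fl against wt/wt organoids asks which members differed where Tacc3 was floxed. At day 4, 1 of the 9 genes differed 2-fold, Mdm4, against 1.48% of all 11399 genes above the filter. At day 6 none of the 9 did, against 0.781% of all genes. The median difference of the members was -0.01 at day 4 and -0.03 at day 6, while the median over all genes was 0.15 and 0.05. Of the 9 members, 3 lay above the all-gene median at each day. No member passed 2-fold at both days. The genotype difference was of opposite sign at the days for 6 of the 9, against 47.0% of all genes. It shifted 2-fold from day 4 to day 6 for 2 of the 9, Mdm4 and Trp53bp1, against 4.75% of all genes, and both shifts were negative (4.10% of all genes). With 1 array a group the shift itself was not tested.

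The comparison of day 6 with day 4 asks what differed between the days in each genotype. In wt/wt organoids 4 of the 9 members differed 2-fold, 3 higher at day 6 (Trp53bp1, Mdm4 and Casp2) and 1 lower (Mdm2). Of all genes 21.2% did so, 18.3% higher and 2.97% lower. In fl/fl organoids 2 of the 9 did, Casp2 higher and Mdm2 lower, against 15.1% of all genes, 12.2% higher and 2.89% lower. The members' median was 0.37 in the wt/wt and 0.13 in the fl/fl culture, with 0.17 and 0.00 over all genes. It was 0.013 and -0.0092 after quantile normalization, where the medians of all genes were -0.13 and -0.12. The split of all genes depended on scale: in wt/wt organoids 2082 were higher and 338 lower, against 1180 and 1121 after quantile normalization, and in fl/fl organoids 1394 and 330, against 921 and 681.

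**Figure D2:**
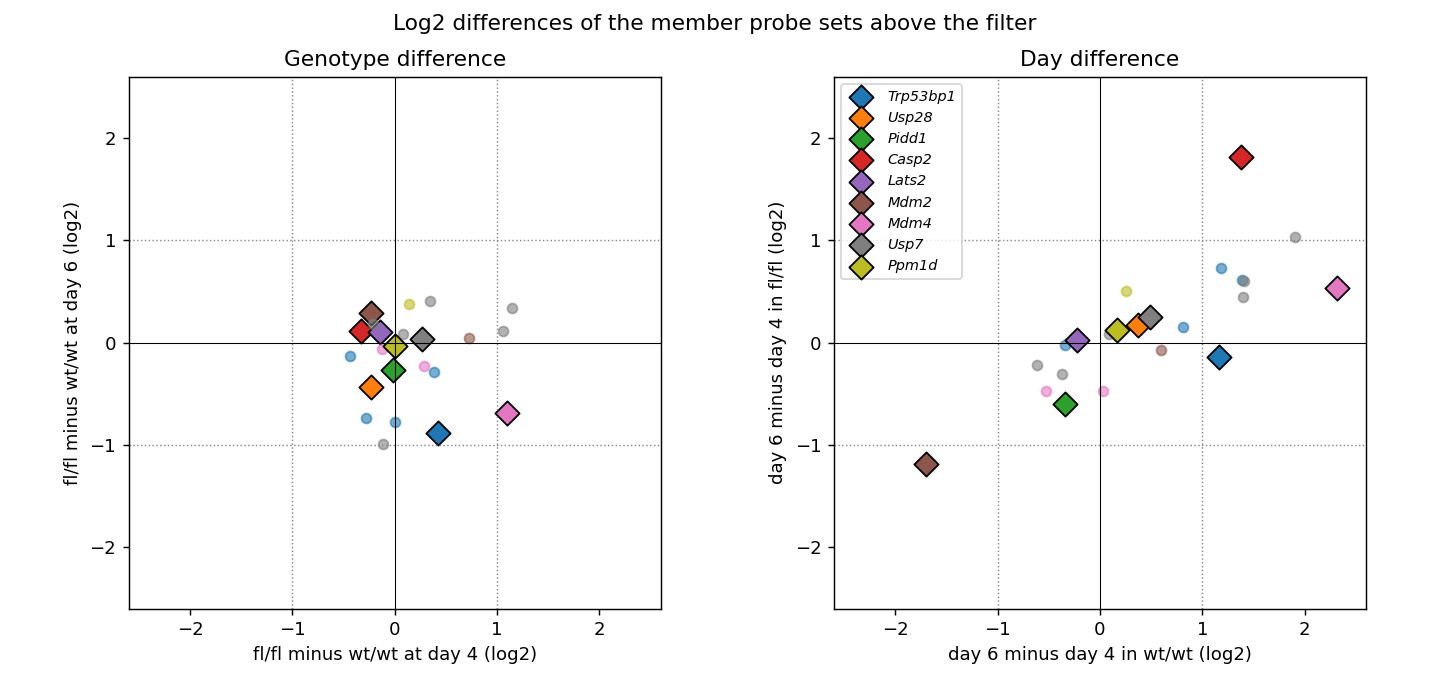
Log2 differences of the 23 member probe sets above the filter, between genotypes (left, day 4 on the x axis and day 6 on the y axis) and between days (right, wt/wt on the x axis and fl/fl on the y axis). Diamonds are the brightest probe set of each gene, circles the others, and dotted lines mark 2-fold. Only Mdm4 among the diamonds passes 2-fold on the left, and Casp2 (1.38 and 1.82) and Mdm2 (-1.70 and -1.18) pass it on both axes on the right.

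Trp53bp1, which encodes 53BP1, was highest in wt/wt organoids at day 6. Its brightest probe set, 1426956_a_at, had intensities of 272 (wt/wt) and 369 (fl/fl) on the day 4 arrays and of 628 and 334 on those of day 6. The 2 fl/fl arrays thus lay between the wt/wt arrays. The genotype difference was 0.42 at day 4 and -0.88 at day 6, the latter 108th from the bottom among 11399 genes, and the day difference was 1.16 in the wt/wt and -0.14 in the fl/fl culture. Probe set 1426957_at read 108 and 145 at day 4, and 201 and 162 on the later day. Its genotype differences had the same signs (0.38 and -0.28), and it was higher at day 6 in the wt/wt (0.81) and slightly in the fl/fl culture (0.15), where 1426956_a_at was slightly lower. A pair of dimmer probe sets from 1 expressed sequence tag, 1457812_at and 1442316_x_at, was also higher at day 6, with 1457812_at at 9.04 and 9.16 at day 4 against 49.5 and 22.4 at day 6. At day 6 these 4 probe sets were lower in fl/fl than in wt/wt organoids, with differences of -0.28 to -0.88. Probe set 1435609_at was lower there too (-0.13) but did not share the day difference (-0.34 in wt/wt and -0.03 in fl/fl), and 1446100_at lay below the filter. After quantile normalization the wt/wt day difference fell short of 2-fold (0.71), as it did with each array centred on the genes above the filter (0.78) and with the mean of its probe sets (0.68).

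Usp28, the deubiquitinase that acts with 53BP1, had a single probe set, which had intensities of 56.4 (wt/wt) and 45.6 (fl/fl) on the day 4 arrays and of 77.7 and 53.5 on those of day 6. It was lower in the fl/fl array on each day, by -0.23 and -0.43. Both fl/fl arrays thus lay below both wt/wt arrays, although neither difference reached 2-fold. The day difference was 0.37 in the wt/wt and 0.17 in the fl/fl culture, and -0.013 and -0.031 with each array centred on the genes above the filter.

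The PIDDosome members went different ways between the days. Casp2, the effector protease, had intensities of 70.2 (wt/wt) and 52.7 (fl/fl) on the day 4 arrays and of 208 and 226 on those of day 6. Both day 6 arrays lay above both day 4 arrays, by 2.96-fold in the wt/wt and 4.29-fold in the fl/fl culture on the intensity scale. On the log2 scale the differences were 1.38 and 1.82, which ranked 1070th and 242nd from the top of 11399 genes. Casp2 is represented by 1 probe set, so no other probe set bears on it. The wt/wt difference was 0.96 after quantile normalization and 0.99 with each array centred on the genes above the filter, just under 2-fold. Between genotypes it differed by -0.33 at day 4 and 0.11 at day 6.

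Pidd1, the death domain protein that nucleates the complex, read 103 and 102 at day 4 and 77.9 and 61.9 at day 6 in wt/wt and fl/fl organoids. Both day 6 arrays were below both day 4 arrays, with day differences of -0.34 and -0.60 that did not reach 2-fold. Its genotype differences were -0.01 and -0.27. Cradd, the adaptor between them, differed by 0.00 in the wt/wt and 0.29 in the fl/fl culture between the days, and by -0.03 and 0.26 between the genotypes. It read 20.4 and 19.6 at day 4 and 20.4 and 27.7 at day 6, close to the filter, where the scale leaves little room for a difference. Of the 3 subunits, Casp2 alone thus passed 2-fold between the days.

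Lats2 was close to the filter throughout. Its only probe set above it, 1419678_at, read 32.7 and 28.0 at day 4 and 25.7 and 28.7 at day 6. Its largest difference in the 4 comparisons was -0.22, between the days in wt/wt organoids. The other 5 probe sets read between 4.26 and 13.8, below the filter, where the scale leaves little room for a difference.

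The probe sets of Mdm2 disagreed about the day. The brightest, 1427718_a_at, had intensities of 450 (wt/wt) and 382 (fl/fl) on the day 4 arrays and of 128 and 159 on those of day 6, so that day 6 stood at 0.283 of the day 4 intensity in the wt/wt and at 0.417 in the fl/fl culture. Both day 6 arrays lay below both day 4 arrays. The log2 differences of -1.70 and -1.18 were the 31st and the 167th from the bottom of 11399 genes. The dim probe set 1457929_at, below the filter, was also lower at day 6, with 23.5 and 16.7 against 8.81 and 7.11. Probe set 1423605_a_at instead read 109 and 191 at day 4 and 174 and 180 at day 6, with day differences of 0.60 and -0.08, so wt/wt at day 4 was its low array. The suffix a_at marks probe sets designed to recognise several transcripts of 1 gene. With the mean of the 3 probe sets the Mdm2 day differences were -0.59 and -0.59, short of 2-fold.

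Between genotypes Mdm2 had no common direction. Probe set 1427718_a_at differed by -0.23 at day 4 and 0.29 at day 6, and 1423605_a_at by 0.72 and 0.05. The second was higher in fl/fl organoids at day 4 by 1.75-fold on the intensity scale, which is 0.72 on the log2 scale and under 2-fold.

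Mdm4 had the widest range of the 9 genes, and it rested on 1 probe set. The s_at probe set 1460542_s_at, a kind that can bind transcripts of several genes, had intensities of 59.8 (wt/wt) and 147 (fl/fl) on the day 4 arrays and of 361 and 219 on those of day 6. The fl/fl arrays lay between the wt/wt arrays, as for 53BP1, an order whose share over all genes was not counted. The genotype difference was 1.10 at day 4, 89th from the top of 11399 genes, and -0.68 at day 6, and the day difference was 2.32 in the wt/wt and 0.53 in the fl/fl culture. Probe set 1458223_at was instead lower at day 6, with 54.2 and 48.6 against 32.5 and 30.5, and 1419558_at read 25.4, 34.5, 26.4 and 20.2 over wt/wt and fl/fl at day 4 and then day 6. Probe set 1453982_at read under 10 on every array, below the filter. Without s_at and x_at probe sets, Mdm4 was represented by 1458223_at and turned direction, with -0.12 between genotypes at day 4 and -0.53 between days in wt/wt organoids. The day 4 genotype difference also fell under 2-fold after quantile normalization (0.94), with each array centred on the genes above the filter (0.89) and with pseudocount 64 (0.77). With the mean of the 4 probe sets, 0.32 remained of it, and 0.40 of the wt/wt day difference.

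The 3 genes whose 4 log2 values, centred on their own mean, lay nearest to those of Mdm4 over the 4 arrays were Cspp1, Relch and Cramp1l, at Euclidean distances of 0.12, 0.21 and 0.21. Cspp1 read 25.4, 63.2, 176 and 101 in wt/wt and fl/fl at day 4 and then wt/wt and fl/fl at day 6, the same order of arrays as Mdm4. Over 4 arrays such likeness is a description only.

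Usp7, which stabilises MDM2 and p53, had 7 probe sets, all above the filter. The brightest, 1419920_s_at, read 442 and 535 at day 4 and 625 and 640 at day 6, with genotype differences of 0.27 and 0.03 and day differences of 0.49 and 0.25. None of these reached 2-fold. Probe sets 1454948_at and 1434371_x_at, which share a source sequence and so are not independent readings, were 2-fold higher in fl/fl organoids at day 4. The first had intensities of 63.6 (wt/wt) and 160 (fl/fl) on the day 4 arrays and of 195 and 252 on those of day 6, so wt/wt at day 4 was its low array. Its differences were 1.14 and 0.34 between genotypes and 1.41 and 0.61 between days, and those of 1434371_x_at were 1.06 and 0.11, and 1.40 and 0.45. Another probe set of the same source sequence, 1454949_at, hardly moved, with 32.6, 35.6, 35.6 and 38.5. Probe set 1438249_at was higher at day 6 in both genotypes, from 23.5 and 20.4 to 132 and 58.6 (1.91 and 1.03), and lower in fl/fl organoids at day 6 (-0.99). The remaining 2, 1419921_s_at and 1437118_at, were lower at day 6 by -0.22 to -0.62.

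Ppm1d had the narrowest range of the 9 genes by its brightest probe set, 1449092_at, with 47.7 and 48.0 at day 4 and 55.3 and 53.9 at day 6. The genotype differences were 0.01 and -0.03, and the day differences 0.16 and 0.13. The other probe set, 1434142_at, read 38.5, 43.9, 49.1 and 68.8 in the same order, with genotype differences of 0.14 and 0.38 and day differences of 0.26 and 0.50. The day differences of 1449092_at turned to -0.13 and -0.0092 after quantile normalization. No common day difference of Ppm1d and Mdm2, the p53 targets whose half-site matches are printed above, could be read, since the Mdm2 probe sets above the filter went opposite ways in wt/wt organoids (-1.70 and 0.60).

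Counted by probe set, 3 of the 23 above the filter were 2-fold higher in fl/fl organoids at day 4, against 1.25% of all 19245 probe sets with 1 symbol above the filter. They were the Mdm4 probe set and the related pair of Usp7, so they amount to 2 genes. At day 6, 0 of 23 passed in either direction, against 1.03%. Between days in wt/wt organoids 8 were higher (18.5% of all probe sets) and 1 was lower (2.79%), and in fl/fl organoids 2 were higher (12.5%) and 1 was lower (2.31%). The spread between a gene's highest and lowest probe set in the wt/wt day difference was 2.85 for Mdm4, 2.52 for Usp7, 2.30 for Mdm2, 1.73 for Trp53bp1 and 0.09 for Ppm1d. Over the 4822 genes with several probe sets above the filter its median was 0.77, and 38.3% of them had a spread of at least 2-fold. In the day 4 genotype difference the spread was 1.36 for Usp7 and 1.22 for Mdm4, against a median of 0.42.

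**Figure D3:**
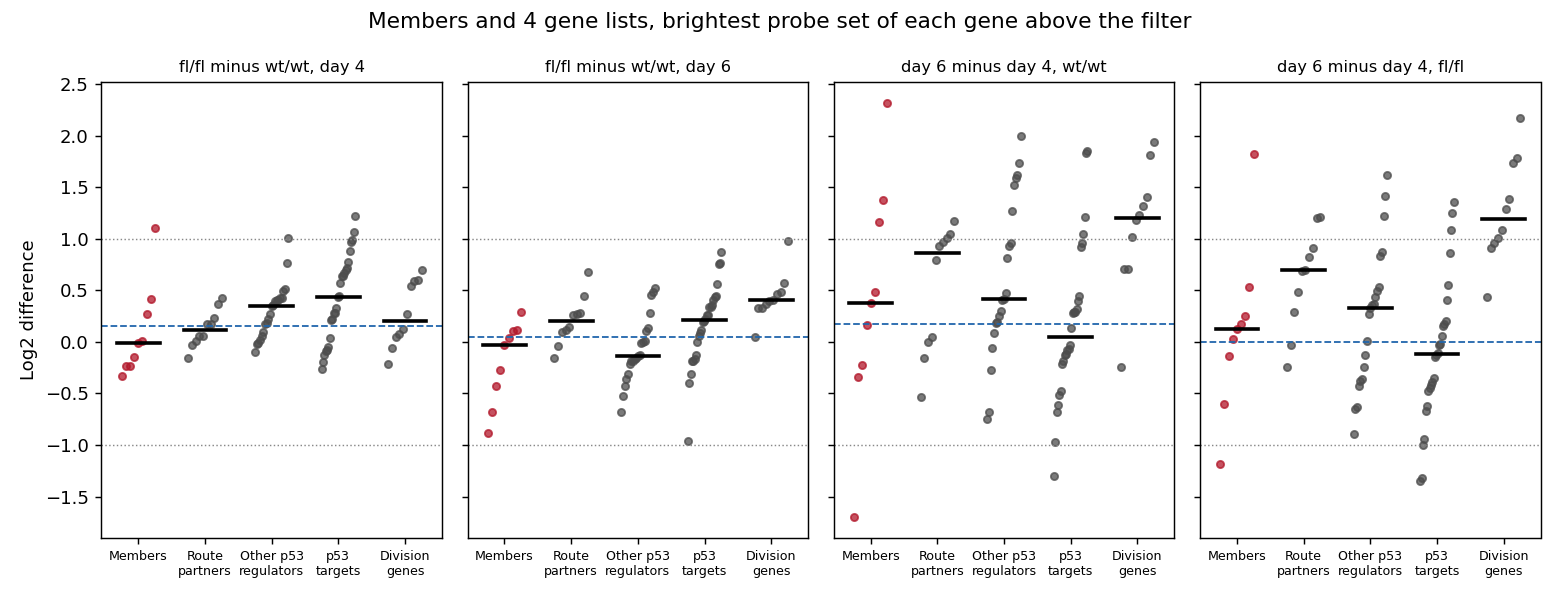
Log2 differences of the 9 member genes (red) and of 4 lists (grey), 1 point a gene, in the 4 comparisons. Black bars are list medians, the blue dashed line is the median of all 11399 genes and dotted lines mark 2-fold. Division genes have the highest medians between the days (1.20 and 1.19), and p53 targets the highest at day 4 between genotypes (0.44).

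Of the partners in the same routes, a few were 2-fold higher at day 6. Of 12 listed partners (the PIDDosome adaptor, its centriolar anchor, Polo kinase and Hippo genes), 10 were measured above the filter, and their median genotype differences were 0.11 at day 4 and 0.20 at day 6, with 0 past 2-fold at either day. Between days the medians were 0.86 in the wt/wt and 0.69 in the fl/fl culture, against 0.17 and 0.00 over all genes. Past 2-fold were 3 and 2 of the 10, all higher at day 6, where 18.3% and 12.2% of all genes were, so these counts are near the background. In wt/wt organoids these were Lats1, Mob1b (1.04) and Yap1, which barely reached it, and in fl/fl organoids Lats1 and Sav1; Mob1b and Yap1 are named after their values were seen. Lats1, the paralogue of Lats2, was higher by 1.17 and 1.21, from 98.9 and 103 to 243 and 261, where Lats2 differed by -0.22 and 0.02. Sav1, the scaffold of the Hippo kinases, was higher by 0.93 and 1.20 and Stk4, the kinase MST1, by 0.97 and 0.91. Plk1, the mitotic Polo kinase, differed by 0.37 and 0.27 between genotypes, and Mob1a, a cofactor of the LATS kinases, by 0.17 and 0.68. Mob1a differed by -0.53 and -0.03 between the days, and Ankrd26, the centriolar anchor (named after its values were seen), by -0.15 and -0.25.

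Other p53 regulators also spanned both directions. Of 26 listed, 21 were measured above the filter, with median genotype differences of 0.35 at day 4 and -0.14 at day 6. Of these, 1 passed 2-fold at day 4 (Atr, the replication stress kinase, 1.01) and 0 at day 6, against 1.48% and 0.781% of all genes. Atr was chosen for mention after its value was seen, and at day 6 it differed by -0.36. It read 63.6 (wt/wt) and 144 (fl/fl) at day 4 and 249 and 190 at day 6. Its fl/fl arrays thus lay between the wt/wt arrays, as for Mdm4 and Trp53bp1. The share of all genes with that order was not counted, so it is not read as a shared trait. Between days 6 of 21 were 2-fold higher in the wt/wt and 3 of 21 in the fl/fl culture, with 0 lower in either, against 18.3% and 12.2% of all genes higher. The fl/fl count is close to that background. The medians were 0.42 and 0.33. Rchy1, the ubiquitin ligase Pirh2 that also targets p53, was higher by 1.59 and 1.62, from 45.2 and 66.3 to 169 and 237. Sirt1, a deacetylase of p53, was higher by 1.99 and 1.41, and Hipk2, a kinase that phosphorylates p53, by 1.52 and 1.22. Between genotypes Rchy1 differed by 0.43 and 0.46, the acetyltransferase Crebbp by 0.49 and 0.28, and the ribosomal protein-like p53 target Rps27l by 0.17 and 0.48.

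A list of p53 targets was read as well, and whether their RNA followed p53 activity in these organoids was not tested. Of 30 listed, none of them a member, 26 were measured above the filter, with median genotype differences of 0.44 at day 4 and 0.21 at day 6 against 0.15 and 0.05 over all genes. Of the 26, 2 passed 2-fold at day 4, the epoxide hydrolase Ephx1 (1.22) and the small GTPase Rap2b (1.07, named after its value was seen), and 0 at day 6, against 1.48% and 0.781% of all genes. The genotype difference was positive for 20 of the 26 at day 4 and for 18 at day 6. The medians over all genes were positive too, and the share of all genes with a positive difference was not counted. The targets' genotype difference was negative each time for Sesn1 (-0.09 and -0.18) and Tigar (-0.13 and -0.13). For others, such as Ddb2 (0.97, then -0.97) and Xpc (0.28, then -0.40), it changed sign. Sesn1, Tigar, Ddb2, Xpc and Cdkn1a are named after their values were seen. Zmat3 had intensities of 48.1 (wt/wt) and 111 (fl/fl) on the day 4 arrays and of 63.8 and 130 on those of day 6. Both its fl/fl arrays thus lay above both wt/wt arrays. Phlda3 did likewise with 58.9 and 112, and 52.5 and 99.6, as did Cdkn1a with 545 and 855, and 352 and 611. Ephx1 shared that order, as did Ccng1, Eda2r, Trp53inp1 and Dcxr, also named after their values were seen. Most of the 26 targets did not show it, and its share over all genes was not counted. The members of the MDM loop did not show that order in their brightest probe sets, as the values of Mdm2, Mdm4 and Ppm1d above show. Of their dimmer probe sets above the filter, 1423605_a_at of Mdm2 did show it, with 109 and 191, and 174 and 180. So did 1437118_at of Usp7, with 25.7 and 37.0, and 16.2 and 26.7, and the rest did not. Between days the targets' medians were 0.05 and -0.12. Sesn2, a stress-induced inhibitor of mTORC1 signalling, was lower at day 6 by -1.30 and -1.32, Perp, a p53-induced membrane protein, was higher by 1.05 and 1.35, and Apaf1, the apoptosome scaffold, by 1.85 and 1.09. Of 10 division genes measured, 7 were 2-fold higher at day 6 in each genotype (18.3% and 12.2% of all genes), with medians of 1.20 and 1.19, among them Top2a (1.81 and 2.17), Cdk1 (1.40 and 1.78) and Bub1 (1.94 and 1.29). Between genotypes the division genes had medians of 0.20 and 0.40, with 0 past 2-fold. Scale bore on the lists as well. With quantile normalization the day medians were 0.42 and 0.43 for the route partners, 0.94 and 0.98 for the division genes, 0.00 and 0.06 for the other regulators, and -0.35 and -0.36 for the p53 targets. It took the genotype medians at day 4 and day 6 to 0.27 and 0.17 for the p53 targets, -0.03 and 0.20 for the route partners, 0.16 and -0.17 for the other regulators and 0.05 and 0.36 for the division genes. With each array centred on the genes above the filter the day 4 medians were 0.23 for the p53 targets, -0.10 for the route partners, 0.13 for the other regulators and -0.01 for the division genes. The route partners and division genes were higher at day 6 by their medians, as were the 5' to 3' ratios given above. The part of those lists or of the ratios in the members' day differences was not tested.

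**Figure D4:**
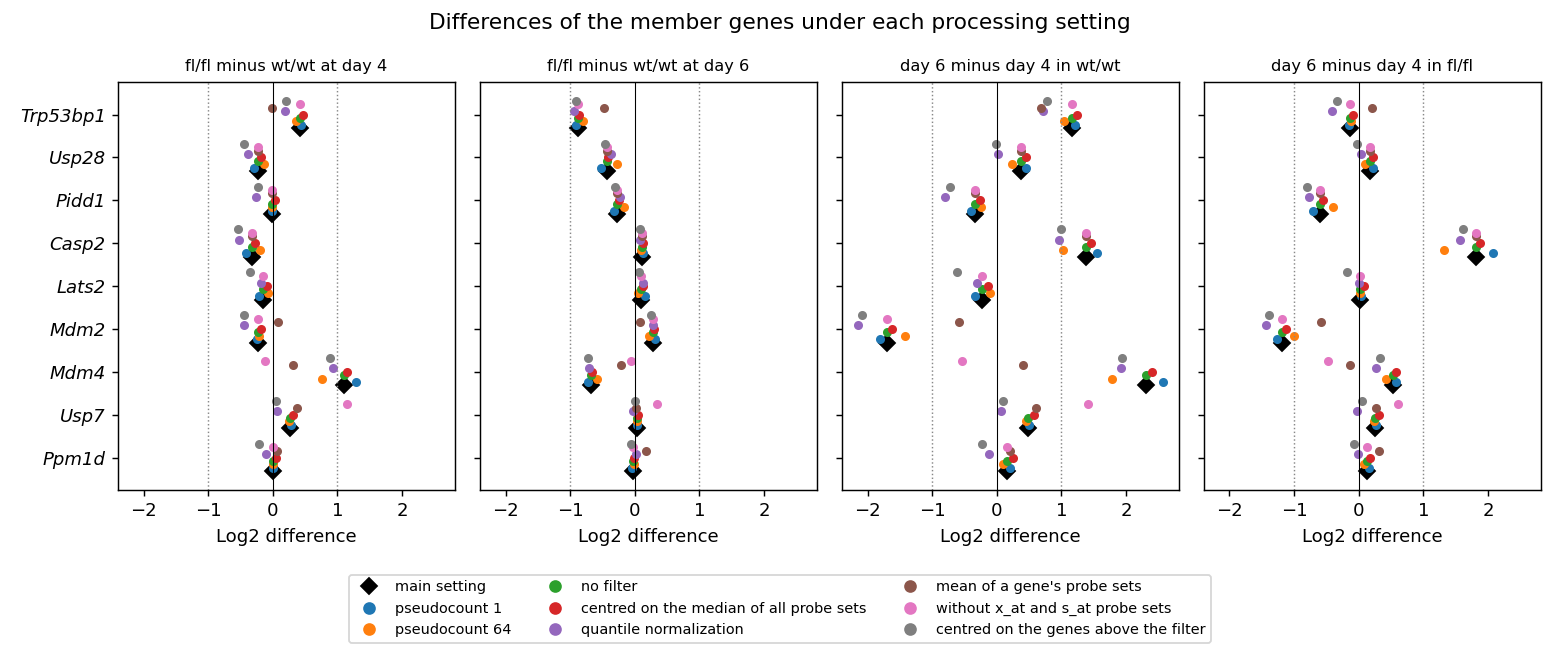
Log2 difference of each of the 9 member genes in the 4 comparisons under each processing setting, with black diamonds for the main setting and dotted lines at 2-fold. Casp2 and Mdm2 keep their day directions under every setting drawn, Mdm4 turns sign without x_at and s_at probe sets, and some differences under 2-fold also change sign.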

How the data were processed

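Expression was measured on 4 Affymetrix arrays of mouse intestinal organoids, and groups were taken from the sample titles. The authors deposited 1 linear intensity per probe set, as the values show, made from 100 ng of total RNA with a 3' labelling kit per the labels' protocols. How the probes were summarised, background-corrected and scaled is not given in the sources used here. The number of arrays limits the precision. Array medians ran from 15.4 to 17.7, so the arrays share no common distribution.

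Intensities were analysed as log2(intensity + 16) in Python 3.11.15, with no further scaling. Symbols came from the platform's gene table, updated through Entrez IDs to RefSeq (34741 of 34945 probe sets with 1 symbol matched; 932 had several and 9211 were not listed). Promoter sequences came from a RefSeq table of GRCm38.p6, which held all 10 genes. The brightest probe set (highest mean over the arrays) stood for a gene, and 11399 of 18193 genes passed the filter, the median of all non-control probe sets. The calculation was tested on simulated data. All 9 measured members were named. From each other list, the 3 genes with the largest mean genotype difference and the 3 with the largest mean day difference could be named, along with the 3 genes nearest to the widest-ranging member. The members and lists were chosen with earlier results of these data known. Alternatives covered the pseudocount, the filter, the scaling and the choice of probe set.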

Additional observations from a re-analysis of the deposited data

Results flagged for a closer look

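The genotype difference was of opposite sign at the 2 days for 6 of the 9 members, against 47.0% of all genes, and in no case was the difference between the days tested, since each group held 1 array. The value given is the genotype difference at day 6 minus that at day 4, on the log2 scale. It was -1.79 for Mdm4 and -1.30 for Trp53bp1, both past 2-fold, against 4.75% of all genes in either direction and 4.10% in the negative one. It was 0.52 for Mdm2, 0.44 for Casp2, 0.25 for Lats2 and -0.036 for Ppm1d. The same shift also meant that the day difference was of opposite sign in the genotypes for 2 members, Trp53bp1 (-1.30) and Lats2 (0.25).

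The Mdm4 value came from its s_at probe set, and the shift of the other 2 above the filter was 0.06 (1458223_at) and -0.51 (1419558_at). For Mdm2 the other probe set above the filter, 1423605_a_at, shifted the opposite way (-0.67), and for Ppm1d 1434142_at shifted by 0.24. For Trp53bp1 the probe set 1426957_at shifted by -0.66 and 1457812_at by -0.78, while 1435609_at shifted by 0.31.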

How the results depend on the processing

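Over 8 alternatives, 284 member differences were recomputed, and 267 stayed on their side of 2-fold, of which 247 kept their sign and 20 that were under 2-fold changed it. Part of this count was fixed beforehand. Dropping the filter left every member's value as it was, and a pseudocount cannot turn a sign. The choice of probe set cannot move a gene with 1 probe set. The sign changes came with centring on the genes above the filter (7), quantile normalization (6), the mean of probe sets (5), centring on all probe sets (1) and leaving out x_at and s_at probe sets (1). Among them were Mdm4 between days in fl/fl organoids (0.53, then -0.13 with the mean and -0.47 without x_at and s_at) and, with the mean, the day 4 genotype differences of Trp53bp1 (0.42, then -0.012) and Mdm2 (-0.23, then 0.073). Another 13 fell under 2-fold, 2 newly passed it and 2 reversed. Casp2 and Mdm2 kept their day directions throughout, although for Casp2, with 1 probe set, only the scaling alternatives could have turned them. The number of members past 2-fold between genotypes at day 4 was 1, and 0 with pseudocount 64, after quantile normalization, with the mean of probe sets and with centring on the genes above the filter, an alternative chosen after seeing the data. Between days in wt/wt organoids it was 4, and 2 after quantile normalization, 2 with that centring and 1 with the mean of probe sets. In fl/fl organoids it was 2, and 1 with pseudocount 64 and 1 with the mean of probe sets. The mean left Lats2 below the filter. Centring on the genes above the filter turned the members' median day differences to -0.013 and -0.078, and their day 4 genotype median was -0.23 with it and 0.035 with centring on all probe sets. Without x_at and s_at probe sets Mdm4 reversed, to -0.12 between genotypes at day 4 and -0.53 between days in wt/wt organoids, and Usp7 newly passed 2-fold, at 1.14 and 1.41.

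The count of all genes past 2-fold between genotypes at day 4, 169, was 523 with pseudocount 1, 27 with 64, 75 with the mean of probe sets and 91 with centring on genes above the filter; at day 6, 89 became 161, 37 and 45 under the first 3. Between days, 2420 in wt/wt became 1201 with pseudocount 64 and 1299 with the mean, and 1724 in fl/fl became 856 and 927. Centring on the genes above the filter split the day 4 genotype calls into 44 higher and 47 lower (157 and 12 without it) and quantile normalization into 117 and 42. The median over all genes in the wt/wt day difference, 0.17, moved to -0.13 and -0.22 under quantile normalization and that centring. No replicate block was fitted, since each group holds 1 array with no replicate number. An additive fit of genotype and day was not run, and its 1 residual degree of freedom would be the shift of the genotype difference between the days.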
